A study of Mus musculus with 12 samples.

Results

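The genes described are the chemokines Ccl24, Ccl11, Ccl17 and Ccl22 and the chemokine receptors Ccr3 and Ccr4, 6 genes of 18193 that carried a single symbol on the array. They were measured in CD11c+ cells, the dendritic cells and macrophages that carry the integrin CD11c, sorted from mouse lung after infection through the trachea with Pneumocystis, a fungus of the lung. The groups were IFNAR-/- mice at day 14, IFNAR-/- mice at day 7, wildtype mice at day 14 and wildtype mice at day 7, with 3 mice and 3 arrays in each, 12 arrays in all. IFNAR-/- mice lack the receptor for type I interferons in every cell, mice of both genotypes were infected, and no uninfected group is among the samples. Cells were taken from collagenase-digested lung with magnetic beads at a stated purity above 90%, with fewer than 5% lymphocytes, so the RNA of every array can hold some of other cells. The age, sex and strain of the mice are not given in the sources used here.

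All 6 genes were found, each by 1 probe set. They were chosen by name as a functional group, with differences between these same arrays already known. Which of these differences guided the choice is not recorded, so every comparison between groups counts as used. The values of the 6 genes are therefore a description with no p-value, and the number past the threshold over all genes is given beside the same share of all genes without reading anything from it. A value is the log2 ratio of a gene to about its own median over the 12 arrays. Arrays can be compared for a gene on this scale, but the level of 1 gene cannot be compared with that of another, and signal over background is not known. Differences are given with the standard error (SE) of a limma fit over all genes and n = 3 arrays per group, and a gene is called where its adjusted p (Benjamini-Hochberg over all 18193 genes) was below 0.05. Between genotypes, rose and fell mean higher and lower in IFNAR-/- than in wildtype cells, not a change over time.

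CCL24 and CCL11 are eotaxins, which draw eosinophils into tissue through the receptor CCR3. CCL17 and CCL22 are ligands of CCR4, a receptor of T helper 2 cells and regulatory T cells, and are made by dendritic cells and macrophages. Interleukin-4 and interleukin-13 induce several of these ligands through the factor STAT6, and macrophages driven by these cytokines are called alternatively activated. In the lung this system is best known from allergy and from worm and fungal infection.

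The ligand genes Ccl24, Ccl22 and Ccl17 were higher at day 14 than at day 7 in cells of both genotypes, by 9.53-fold to 42.2-fold without the interferon receptor and by 4.87-fold to 13.5-fold in wildtype cells. At day 7 Ccl24 and Ccl22 were lower in IFNAR-/- than in wildtype cells, by 3.72-fold and 2.58-fold. At day 14 no such gap was called for any of the 6 genes. Ccl11 and both receptors showed no called difference in any comparison.

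**Figure D1:**
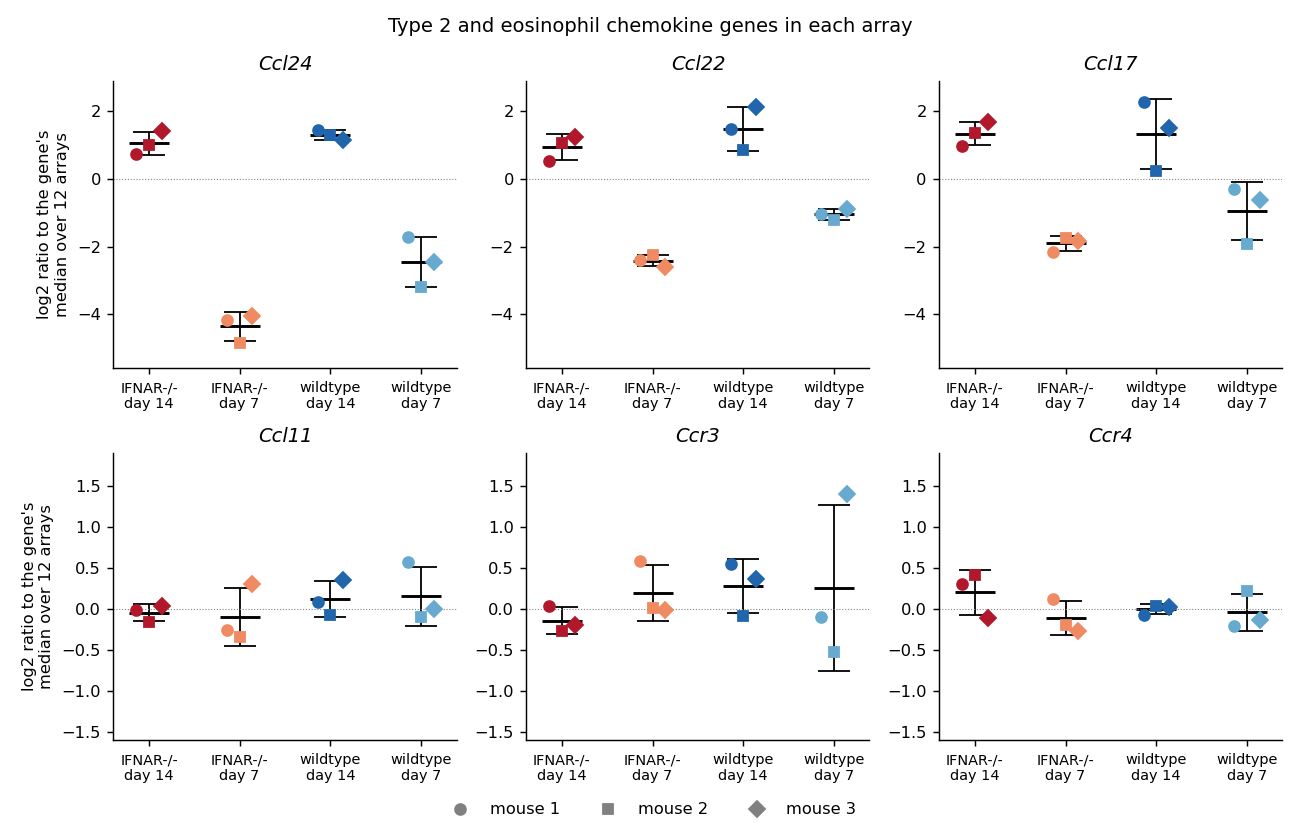
Each point is 1 array, drawn as the log2 ratio to the gene's median over 12 arrays, for the 6 genes in the 4 groups. Bars give the mean and SD of 3 arrays, and symbols mark the mouse number, which links no mice between groups. The day 14 arrays of Ccl24, Ccl22 and Ccl17 all lie above the day 7 arrays of the same genotype, and the lower row has a narrower axis.

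Ccl24, the gene of eotaxin-2, spanned 6.29 log2 units over the arrays and had rank 8 of all genes by its SD of 2.53. Its log2 ratio was 0.75, 1.00 and 1.41 in IFNAR-/- arrays at day 14, against -4.16, -4.84 and -4.05 in IFNAR-/- arrays at day 7. In wildtype arrays it was 1.46, 1.31 and 1.16 at day 14, against -1.70, -3.20 and -2.45 at day 7. Both day 14 groups overlapped each other, every wildtype day 7 array lay below them, and every IFNAR-/- day 7 array lay lower still. Group means ± SD (n = 3) were 1.05 ± 0.33 in IFNAR-/- day 14, -4.35 ± 0.43 in IFNAR-/- day 7, 1.31 ± 0.15 in day 14 wildtype and -2.45 ± 0.75 in wildtype day 7 cells. From the highest level down the order was thus day 14 of both genotypes, whose arrays overlapped, then wildtype day 7, then IFNAR-/- day 7.

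Over time Ccl24 differed by 5.40 ± 0.33 (SE) in IFNAR-/- cells, day 14 minus day 7, the highest of all 18193 differences in that comparison. In wildtype cells it differed by 3.76 ± 0.33, the third highest. Between genotypes, IFNAR-/- minus wildtype, it differed by -0.25 ± 0.33 at day 14 and by -1.90 ± 0.33 at day 7. After arrays were quantile normalised again the wildtype difference over time was 4.67 ± 0.54, and the day 7 genotype value was -1.16 ± 0.54 and not called.

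Ccl22, the gene of macrophage-derived chemokine, followed the same order of groups, with means ± SD (n = 3) of 0.95 ± 0.37 in IFNAR-/- day 14, -2.41 ± 0.17 in IFNAR-/- day 7, 1.48 ± 0.64 in day 14 wildtype and -1.05 ± 0.17 in wildtype day 7 cells. Its log2 ratio was 0.53, 1.08 and 1.24 in IFNAR-/- arrays at day 14, against -2.40, -2.24 and -2.59 in IFNAR-/- arrays at day 7. It was 1.47, 0.85 and 2.13 in wildtype arrays at day 14, against -1.04, -1.22 and -0.88 in wildtype arrays at day 7. The day 7 groups were tight and did not overlap, with an SD of 0.17 in each, while the day 14 groups overlapped. Day 14 minus day 7 was 3.36 ± 0.28 (SE) in IFNAR-/- cells, rank 10 from the highest of all genes, and 2.53 ± 0.28 in wildtype cells, rank 18. IFNAR-/- minus wildtype was -0.53 ± 0.28 at day 14 and -1.37 ± 0.28 at day 7. With quantile normalization applied again the wildtype difference over time was 3.39 ± 0.36, and the day 7 genotype value was -0.66 ± 0.36 and not called.

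Ccl17, the gene of thymus and activation regulated chemokine, had the same direction over time and more spread between wildtype mice, with means ± SD (n = 3) of 1.35 ± 0.34 in IFNAR-/- day 14, -1.90 ± 0.21 in IFNAR-/- day 7, 1.34 ± 1.03 in day 14 wildtype and -0.94 ± 0.86 in wildtype day 7 cells. Its log2 ratio was 0.99, 1.37 and 1.68 in IFNAR-/- arrays at day 14, against -2.15, -1.74 and -1.82 in IFNAR-/- arrays at day 7. In wildtype arrays it was 2.28, 0.23 and 1.52 at day 14, against -0.30, -1.92 and -0.61 at day 7. Wildtype mouse 2 of day 7 lay among the IFNAR-/- arrays of that day, so the genotypes overlapped on both days, while the days did not overlap in either genotype. Day 14 minus day 7 was 3.25 ± 0.49 (SE) in IFNAR-/- cells, rank 12 from the highest, and 2.28 ± 0.49 in wildtype cells, rank 22. IFNAR-/- minus wildtype was 0.01 ± 0.49 at day 14 and -0.96 ± 0.49 at day 7, and neither was called. The wildtype call over time was lost without wildtype day 7 mouse 2 (difference 1.80), wildtype day 14 mouse 1 (1.82) or wildtype day 14 mouse 3 (2.20), and also when only the wildtype arrays were fitted (2.28 ± 0.59). After arrays were quantile normalised again the IFNAR-/- difference over time was 3.91 ± 0.58.

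Ccl22 and Ccl17 lie close together on mouse chromosome 8 with the chemokine gene Cx3cl1 as the only protein-coding gene between them in the gene table. Cx3cl1, looked up after the values of its neighbours were seen, differed by -0.25 ± 0.12 (SE) over time in IFNAR-/- cells (limma adjusted p 0.190) and by -0.17 ± 0.12 in wildtype cells (limma adjusted p 0.469). The upstream sequences of Ccl22 and Ccl17 are shown because both genes were higher at day 14 while the gene between them was not called. They are the 250 bases before 1 start site per gene in RefSeq (GRCm38.p6), both on the plus strand, chr8:94745434-94745683 for Ccl22 and chr8:94810203-94810452 for Ccl17. For Ccl22 this start site is the first base of the annotated gene, while for Ccl17 it is a later one, so that the Ccl17 stretch lies inside the annotated span of the gene. Capitals mark the letters of any of 4 searched motifs.

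Ccl22: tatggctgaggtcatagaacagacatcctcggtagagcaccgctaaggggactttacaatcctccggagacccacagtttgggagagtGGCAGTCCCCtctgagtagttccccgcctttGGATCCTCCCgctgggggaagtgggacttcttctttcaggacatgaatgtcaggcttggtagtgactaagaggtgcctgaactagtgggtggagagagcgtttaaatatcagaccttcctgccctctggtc

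Ccl17: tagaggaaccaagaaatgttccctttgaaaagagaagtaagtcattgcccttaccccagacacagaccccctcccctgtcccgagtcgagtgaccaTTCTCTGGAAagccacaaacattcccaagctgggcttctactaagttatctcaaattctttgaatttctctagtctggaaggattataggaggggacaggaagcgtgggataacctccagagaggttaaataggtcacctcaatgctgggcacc

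The searched motifs, on both strands, were TTC and GAA with 4 free bases between them for STAT6, GAAA and GAAA with 2 free bases between them for the interferon response element, GGG and CC with 5 free bases between them for NF-kB and TGANTCA for AP-1. Ccl17 held the STAT6 letters at 154 to 145 bases before the start, a stretch whose motif reads the same on both strands. Of 32851 upstream sequences of the same length, 5.9% held the STAT6 letters. Ccl22 held the NF-kB letters at 162 to 153 and at 131 to 122 bases, a loose motif that 45.8% of upstream sequences held, and it did not hold the STAT6 letters in this window. Neither sequence held the interferon response letters, present in 3.0% of upstream sequences, or the AP-1 letters, present in 6.7%. A match is a match of letters and not a shown binding site. Upstream sequences were found for 4 of the 6 genes, with those of Ccr3 and Ccr4 not shown.

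Ccl11, the gene of eotaxin-1, is known mainly from fibroblasts, epithelium and smooth muscle. Its log2 ratio was -0.01, -0.16 and 0.04 in IFNAR-/- arrays at day 14, against -0.26, -0.34 and 0.31 in IFNAR-/- arrays at day 7. It was 0.09, -0.07 and 0.36 in wildtype arrays at day 14, against 0.57, -0.10 and 0.00 in wildtype arrays at day 7. All 4 groups overlapped. Differences in the 4 comparisons of groups ran from -0.25 ± 0.21 (SE), IFNAR-/- minus wildtype at day 7, to 0.05 ± 0.21, day 14 minus day 7 in IFNAR-/- cells, so no neighbours in the order of groups differed beyond their spread. The highest array, wildtype day 7 mouse 1, and the highest IFNAR-/- array, day 7 mouse 3, were also the arrays highest in lung epithelial and endothelial markers of their groups. Between them in Ccl11 lay wildtype day 14 mouse 3, at 0.36. Its marker medians were low, at -0.41 for epithelium, -0.37 for endothelium and -0.42 for fibroblasts and smooth muscle. The median of 7 lung epithelial markers was -0.11 to 0.28 in IFNAR-/- day 14, -0.06 to 2.64 in IFNAR-/- day 7, -0.49 to -0.41 in wildtype day 14 and -0.25 to 1.01 in wildtype day 7 arrays. The median of 7 fibroblast and smooth muscle markers was 0.01 to 0.03, -0.08 to 1.93, -0.45 to -0.38 and -0.18 to 0.62 in the same groups. Sftpc, the surfactant protein C gene, differed by 0.13 ± 0.44 between genotypes at day 7 (limma adjusted p 0.968) and the collagen gene Col1a1 by 0.15 ± 0.45 (0.964). The part of these cells in the Ccl11 values was not tested.

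Ccr3, the eotaxin receptor, had a log2 ratio of 0.04, -0.27 and -0.19 in IFNAR-/- arrays at day 14, against 0.59, 0.01 and -0.01 in IFNAR-/- arrays at day 7. It was 0.55, -0.09 and 0.37 in wildtype arrays at day 14, against -0.10, -0.52 and 1.40 in wildtype arrays at day 7. The groups overlapped in every comparison, and 1 array, wildtype day 7 mouse 3, stood far above the rest. IFNAR-/- minus wildtype was -0.42 ± 0.40 (SE) at day 14 and -0.07 ± 0.40 at day 7, and the day 7 value was 0.50 ± 0.24 without that array. Day 14 minus day 7 was -0.34 ± 0.40 in IFNAR-/- and 0.02 ± 0.40 in wildtype cells, and the wildtype value was 0.59 ± 0.24 without it.

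Epx, the eosinophil peroxidase, was at -0.43, 0.51 and -0.02 in IFNAR-/- day 14, 0.02, 0.00 and -0.66 in IFNAR-/- day 7, 1.96, -0.12 and 1.16 in wildtype day 14 and -0.28, -0.44 and 0.62 in wildtype day 7 arrays. Il4 was at -0.12, -0.01 and -0.37, at 0.01, 0.15 and -0.63, at 1.50, -0.02 and 1.03 and at -0.45, -0.34 and 0.80 in the same order of groups. Epx differed by -0.98 ± 0.47 (SE) between genotypes at day 14, with a limma adjusted p of 0.258, and Prg2, the major basic protein, by -2.18 ± 0.79, with 0.140, while Siglecf, shared with alveolar macrophages, differed by 0.76 ± 0.47, with 0.389. Of 6 eosinophil markers 4 were below 0 in this comparison, limma called 0, and 2 had an unadjusted p below 0.05. Over time 1 of 6 was called in each genotype, Siglecf, and it fell in both. Of all genes 5.04% were called between genotypes at day 14, 12.3% over time in IFNAR-/- and 7.98% over time in wildtype cells. The median of 6 eosinophil markers was -0.83 to -0.25 in IFNAR-/- day 14, -0.39 to 0.46 in IFNAR-/- day 7, 0.16 to 0.98 in wildtype day 14 and -0.50 to 0.72 in wildtype day 7 arrays. Wildtype day 7 mouse 3, the array highest in Ccr3, had the 0.72. The highest median, 0.98, was that of wildtype day 14 mouse 1, with Ccr3 at 0.55. The part of eosinophils in the Ccr3 values was not tested.

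Ccr4, the receptor of CCL17 and CCL22, varied least of the 6 genes, with an SD of 0.22 over the 12 arrays, the same as the median gene. Its log2 ratio was 0.30, 0.42 and -0.11 in IFNAR-/- arrays at day 14, against 0.12, -0.19 and -0.27 in IFNAR-/- arrays at day 7. It was -0.07, 0.04 and 0.03 in wildtype arrays at day 14, against -0.21, 0.22 and -0.13 in wildtype arrays at day 7. All groups overlapped, and the differences lay between -0.07 ± 0.16 (SE) for genotype at day 7 and 0.31 ± 0.16 for time in IFNAR-/- cells. The median of 11 T cell markers was 0.21 to 0.85 in IFNAR-/- day 14 arrays, against -0.66 to -0.25 in IFNAR-/- day 7, -0.35 to -0.11 in wildtype day 14 and -0.06 to 0.42 in wildtype day 7 arrays. The median of 6 markers of T helper 2 and regulatory T cells was 0.04 to 0.14, -0.20 to -0.15, -0.09 to 0.41 and 0.04 to 0.23 in the same order of groups. Of the 11 T cell markers 5 rose between genotypes at day 14 and 7 rose over time in IFNAR-/- cells. Ccr4 was not called in these comparisons. Of all genes 5.04% were called in either direction at day 14, and 4.08% were called higher over time in IFNAR-/- cells. Cd3e, which encodes the CD3 epsilon subunit, differed by 0.61 ± 0.20 between genotypes at day 14 (limma adjusted p 0.107) and Cd4 by 0.31 ± 0.18 (0.347). The arrays highest in Ccr4, IFNAR-/- day 14 mouse 2 and mouse 1, had T cell marker medians of 0.70 and 0.85. Mouse 3 of that group, with Ccr4 at -0.11, had 0.21. Wildtype day 7 mouse 1, with Ccr4 at -0.21, had 0.42. The part of T cells in the Ccr4 values was not tested. Whether the probe sets of Ccl11, Ccr3 and Ccr4 stood above background cannot be read from ratios.

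**Figure D2:**
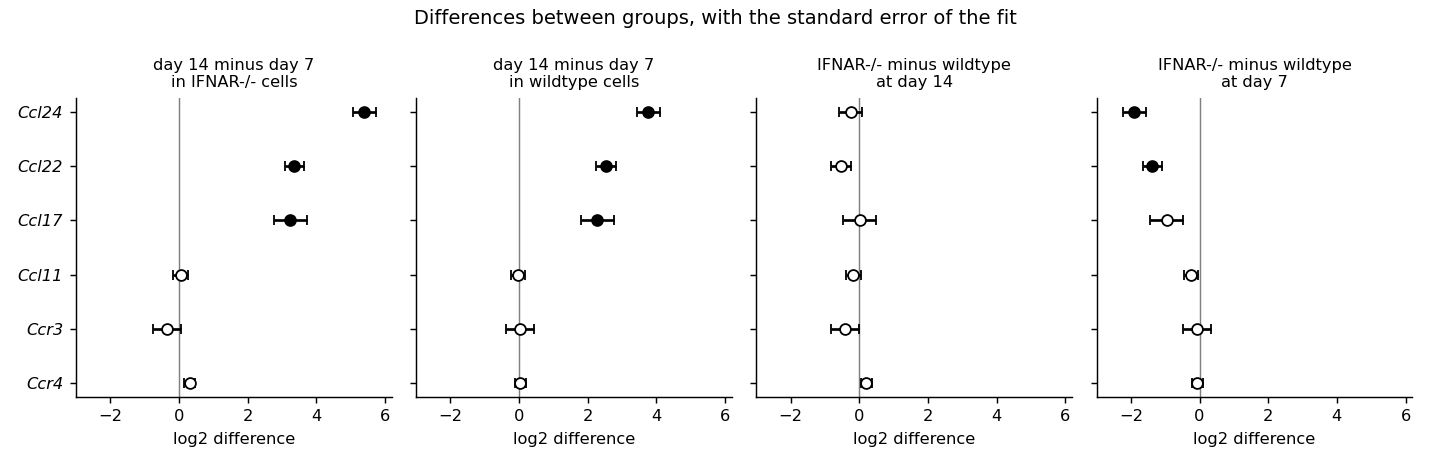
Points are log2 differences of the 6 genes in 4 comparisons, with the standard error of the limma fit as bars and 3 arrays per group. Filled points passed the threshold over all genes: Ccl24, Ccl22 and Ccl17 over time in both genotypes, and Ccl24 and Ccl22 between genotypes at day 7.

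Counted over the group, 3 of 6 genes were called higher at day 14 in IFNAR-/- cells, where 4.08% of all genes were, and 3 of 6 in wildtype cells, where 3.88% were. The same 3 genes had all day 14 arrays above all day 7 arrays, which held for 16.2% of all genes in IFNAR-/- and 16.0% in wildtype cells. Between genotypes at day 7, 2 of 6 were called lower, against 1.35% of all genes, and the same 2 had all IFNAR-/- arrays below all wildtype arrays, against 11.6%. At day 14, 0 of 6 were called by limma in either direction, against 5.04% of all genes. Of the 6, 0 had groups that did not overlap, against 23.4%. The median difference of the 6 genes was 1.78 over time in IFNAR-/- and 1.16 in wildtype cells, -0.21 between genotypes at day 14 and -0.61 at day 7, where the medians of all genes were 0.024, 0.019, 0.003 and -0.001.

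The difference between genotypes at day 14 minus that at day 7 was 1.64 ± 0.47 (SE) for Ccl24, 0.97 ± 0.69 for Ccl17 and 0.83 ± 0.40 for Ccl22. By limma 0 of 6 genes were called for this change, against 2.48% of all genes. The comparisons over time and between genotypes share arrays: the IFNAR-/- day 7 arrays are part of both the larger change over time and the day 7 difference.

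**Figure D3:**
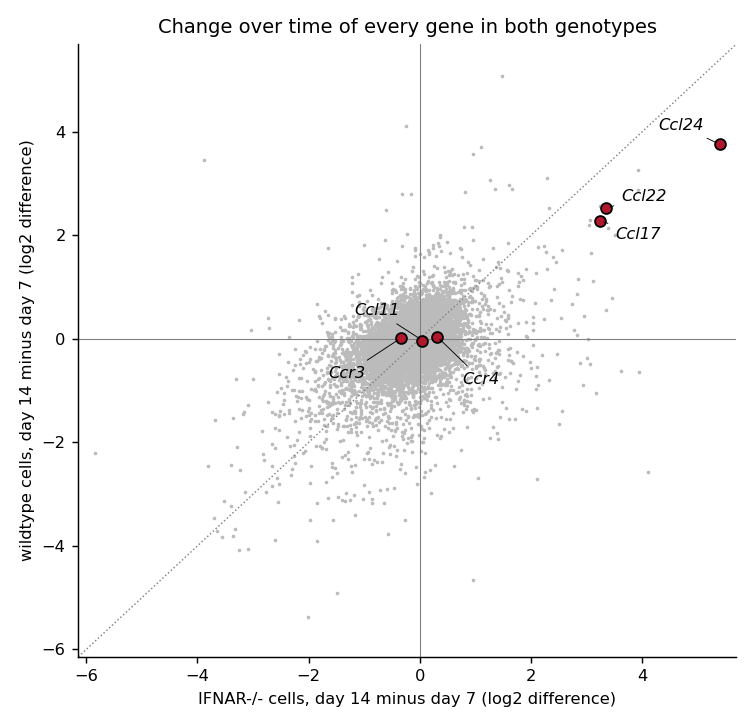
Each grey point is 1 of 18193 genes, placed by its log2 difference of day 14 minus day 7 in IFNAR-/- cells (horizontal axis) and in wildtype cells (vertical axis), and the dotted line marks equal differences. Ccl24, at 5.40 and 3.76, lies farthest to the right, Ccl22 and Ccl17 lie at 3.36 and 3.25 on the horizontal axis, and Ccl11, Ccr3 and Ccr4 lie near 0.

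The called results over time held whichever single array was left out for Ccl24 and Ccl22 in both genotypes and for Ccl17 in IFNAR-/- cells. The day 7 genotype calls did not. Without IFNAR-/- day 7 mouse 2 neither gene was called, and without any other single day 7 array Ccl24 was called and Ccl22 was not. The differences themselves then stayed between -2.27 and -1.52 for Ccl24 and between -1.46 and -1.28 for Ccl22.

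Several array properties moved with these comparisons. IFNAR-/- day 14 mouse 2 had an interquartile range of log2 ratios of 0.582, against 0.188 to 0.371 in the other arrays, and IFNAR-/- day 7 mouse 3 had a lung epithelial marker median of 2.64, against -0.49 to 1.01 in the others. Without both, Ccl24 differed over time by 5.58 in IFNAR-/- cells and between genotypes at day 7 by -2.05, Ccl22 by 3.21 and -1.28, and Ccl17 by 3.28 and -1.0. The ratio of 5' to 3' probe sets for the actin and Gapdh controls, which falls as RNA degrades, had a log2 value of 0.06 to 0.16 in IFNAR-/- day 14, -0.52 to 0.11 in IFNAR-/- day 7, -0.91 to -0.18 in wildtype day 14 and 0.08 to 0.18 in wildtype day 7 arrays, with the lowest value in wildtype day 14 mouse 3. With this signal as a covariate the wildtype difference over time was 4.08 ± 0.44 (SE) for Ccl24, 1.97 ± 0.29 for Ccl22 and 1.95 ± 0.67 for Ccl17, and the last was not called. The poly-A spike-in signal was -1.75 to 0.17, -3.60 to 1.41, -3.48 to -1.94 and 0.83 to 2.15 in the same groups. With it as a covariate these differences were 3.47 ± 0.50, 2.43 ± 0.43 and 2.01 ± 0.75, and again Ccl17 was not called.

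Markers of the main cells in the sort moved as well. Of 7 alveolar macrophage markers 3 fell over time in IFNAR-/- and 3 in wildtype cells, and their median was -0.51 to 0.04 in IFNAR-/- day 14, 0.90 to 1.20 in IFNAR-/- day 7, -0.89 to -0.41 in wildtype day 14 and -0.06 to 0.78 in wildtype day 7 arrays. Among them Siglecf, a lectin of alveolar macrophages and eosinophils, fell by 2.11 (limma adjusted p 0.0151) in IFNAR-/- and by 2.21 (0.0168) in wildtype cells. Of 9 dendritic cell markers 6 fell between genotypes at day 7 and 5 rose over time in IFNAR-/- cells, with a median of -0.03 to 0.34, -0.49 to -0.36, -0.15 to -0.10 and -0.01 to 0.25 in the same order of groups. Of 4 monocyte markers 2 rose between genotypes at day 14, 2 fell between genotypes at day 7, 2 rose over time in IFNAR-/- cells and 2 fell over time in wildtype cells. Their median was 0.11 to 0.32, -0.74 to -0.28, -0.31 to 0.13 and 0.04 to 0.34 in that order of groups. Of all genes 12.3% were called in either direction over time in IFNAR-/- cells and 7.98% in wildtype cells. Between genotypes 2.64% were called at day 7 and 5.04% at day 14. The same shares stand beside the counts of the gene lists that follow. Itgax, the gene of CD11c itself, differed between genotypes by 0.22 ± 0.13 (SE) at day 14 and 0.02 ± 0.13 at day 7, and neither was called. In these sorted bulk samples fewer cells of a type and less RNA per cell cannot be told apart, and the part of the cell mixture in the chemokine values was not tested.

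Of 18 measured genes for type 2 cytokines, their receptors and their factors, 2 rose and 1 fell over time in IFNAR-/- cells. Over time in wildtype cells 2 rose, and between genotypes at day 7, 1 fell. Of all genes 12.3%, 7.98% and 2.64% were called in either direction in the same comparisons. Il33, an alarmin that activates type 2 cells, rose by 3.11 ± 0.69 (SE) in wildtype cells over time (limma adjusted p 0.0205), and Il13ra2, the decoy receptor of interleukin-13, by 1.87 ± 0.41 (0.0196). In IFNAR-/- cells over time Il4ra, the shared receptor chain for interleukin-4 and interleukin-13, rose by 0.70 ± 0.19 (0.0377), Crlf2, the receptor chain for TSLP, rose by 0.66 ± 0.18 (0.0365) and Stat6 fell by 0.49 (0.0368). Il33 there differed by 2.30 ± 0.69 and missed the threshold (limma adjusted p 0.0513). In wildtype cells over time Stat6 differed by -0.45 ± 0.13 (limma adjusted p 0.0666), Il4ra by 0.32 ± 0.19 (0.379) and Crlf2 by -0.42 ± 0.18 (0.199). At day 7 Crlf2 was lower in IFNAR-/- than in wildtype cells by 1.28 (limma adjusted p 0.00446). At day 14 limma called 0 of the 18 between genotypes, with 3 at an unadjusted p below 0.05.

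Il4, Il5, Il13 and Tslp were not called in any comparison. Il4 differed by -1.0 ± 0.40 (SE) between genotypes at day 14 (limma adjusted p 0.178) and Il13 by -0.33 ± 0.18 (0.343). Il5, the eosinophil growth factor, differed by 0.38 ± 0.14 over time in IFNAR-/- cells (limma adjusted p 0.0965), and Tslp by -0.08 ± 0.21 (0.817). Il5ra, the receptor for interleukin-5 on eosinophils, differed by -0.18 ± 0.17 between genotypes at day 14 (limma adjusted p 0.617). The list had a median difference of 0.21 over time in IFNAR-/- and 0.08 in wildtype cells.

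Ccl7 had its lowest values in the IFNAR-/- day 7 arrays, like Ccl24 and Ccl22. Ccl7, which binds CCR3 as well as the monocyte receptor CCR2, was at -0.38, -1.46 and 0.28 in IFNAR-/- day 14, -3.42, -3.20 and -3.45 in IFNAR-/- day 7, 0.89, 0.79 and 0.74 in wildtype day 14 and 0.86, 0.50 and -1.57 in wildtype day 7 arrays. It rose over time in IFNAR-/- cells by 2.84 ± 0.55 (SE; limma adjusted p 0.00833), and its wildtype difference over time was 0.88 ± 0.55 (0.404). Between genotypes at day 7 it fell by 3.28 (limma adjusted p 0.0104). Ccl8, a ligand of CCR8 in the mouse, rose by 2.23 ± 0.53 over time in IFNAR-/- cells (limma adjusted p 0.0205) and differed by 1.80 ± 0.53 in wildtype cells (0.0628). Ccr1, a receptor of several inflammatory chemokines, fell by 1.06 between genotypes at day 14 (limma adjusted p 0.00844), fell by 1.33 at day 7 (0.00221), and rose over time in IFNAR-/- cells by 0.82 ± 0.17 (0.00947). Ackr4, a scavenger receptor of other chemokines, rose over time in wildtype cells by 1.22 ± 0.31 (limma adjusted p 0.0360). Of the 13 listed genes 3 rose over time in IFNAR-/- cells and 1 in wildtype cells, and between genotypes 1 fell at day 14 and 2 fell at day 7, with a median difference over time of 0.24 in IFNAR-/- and 0.20 in wildtype cells. Ccl5 at -1.12 ± 0.64 and Ccr8 at -0.46 ± 0.17, both IFNAR-/- minus wildtype at day 7, were not called (limma adjusted p 0.532 and 0.236), nor were the decoy receptor Ackr2 at 0.72 ± 0.47 (0.629) and the protease Dpp4, which trims several chemokines, at -0.18 ± 0.17 (0.797).

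Genes of alternative activation are induced in macrophages by interleukin-4 and interleukin-13. At day 7, 3 of them were lower in IFNAR-/- than in wildtype cells, Arg1, Pdcd1lg2 and Tgm2. Arg1, the arginine-degrading enzyme, rose by 3.12 ± 0.34 (SE) over time in IFNAR-/- cells (limma adjusted p 0.000654). Its wildtype difference over time was 1.11 ± 0.34 (limma adjusted p 0.0699), and it fell by 2.32 between genotypes at day 7 (0.00471). Pdcd1lg2, the ligand PD-L2, rose over time by 3.39 ± 0.44 in IFNAR-/- cells (limma adjusted p 0.00134) and by 2.15 ± 0.44 in wildtype cells (0.0147). Between genotypes at day 7 it fell by 2.53 (limma adjusted p 0.0127). Tgm2, a transglutaminase, rose by 0.89 ± 0.16 over time in IFNAR-/- cells (limma adjusted p 0.00537) and differed by 0.24 ± 0.16 in wildtype cells (0.428). Between genotypes at day 7 it fell by 0.69 (limma adjusted p 0.0434). Retnla, the secreted protein RELM-alpha, rose over time by 1.92 ± 0.47 in wildtype cells (limma adjusted p 0.0301), and its difference in IFNAR-/- cells was -0.63 ± 0.47 (0.387). Clec10a, a lectin of these macrophages and of dendritic cells, rose over time by 1.43 ± 0.28 in wildtype cells (limma adjusted p 0.0118). Its difference in IFNAR-/- cells was 0.90 ± 0.28 (limma adjusted p 0.057). Of 9 genes 3 rose over time in each genotype, with a median difference of 0.36 in IFNAR-/- and 1.11 in wildtype cells, and 3 fell between genotypes at day 7. The list was split at day 7, with 4 of 9 above 0 and a median of -0.02. Retnla there differed by 1.23 ± 0.47 (limma adjusted p 0.24). At day 14 limma called 0 of the 9 between genotypes, with 3 at an unadjusted p below 0.05 and a median of -0.65.

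Mature dendritic cells are a known source of CCL17 and CCL22. Among their genes, those called over time rose in IFNAR-/- cells and fell in wildtype cells. Only Ccr7 and Fscn1 were called in both genotypes. Over time in IFNAR-/- cells 5 of 12 rose, among them Cd40 by 2.54 ± 0.39 (SE; limma adjusted p 0.00275), Cd86 by 1.63 ± 0.27 (0.00413), Irf4, a factor of dendritic cells and of alternatively activated macrophages, by 1.91 ± 0.36 (0.00699) and Ccr7, the receptor that guides dendritic cells to lymph nodes, by 0.79 ± 0.20 (0.0255). Over time in wildtype cells 4 of 12 fell and 0 rose, with Ccr7 falling by 1.28 (limma adjusted p 0.00442), Fscn1 by 0.92 (0.0143), Cd80 by 0.73 (0.00884) and Nfkb2 by 0.53 (0.0179). Between genotypes at day 14, 3 of 12 rose, namely Fscn1 by 1.02 ± 0.19 (limma adjusted p 0.0151), Nfkb2 by 0.68 ± 0.11 (0.0104) and Ccr7 by 0.78 ± 0.20 (0.0462). Between genotypes at day 7, 4 of 12 fell, namely Ccr7 by 1.29 (limma adjusted p 0.00667), Cd86 by 1.56 (0.0126), Cd40 by 2.02 (0.0211) and Irf4 by 1.63 (0.0384). Cd40 differed over time in wildtype cells by 0.41 ± 0.39 (limma adjusted p 0.616), Irf4 by 0.33 ± 0.36 (0.666) and Cd86 by -0.18 ± 0.27 (0.764). In IFNAR-/- cells Nfkb2 differed by -0.17 ± 0.11 (limma adjusted p 0.338) and Cd80 by -0.03 ± 0.13 (0.892). The list's median difference over time was 0.55 in IFNAR-/- and -0.45 in wildtype cells, with 10 of 12 and 3 of 12 genes above 0. The change of the genotype difference was called for Ccr7 at 2.07 ± 0.28 (limma adjusted p 0.00729), Fscn1 at 1.62 ± 0.27 (0.0144) and Cd86 at 1.81 ± 0.38 (0.0363), and not for Cd40 at 2.13 ± 0.55 (0.0657) or Irf4 at 1.59 ± 0.51 (0.123).

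**Figure D4:**
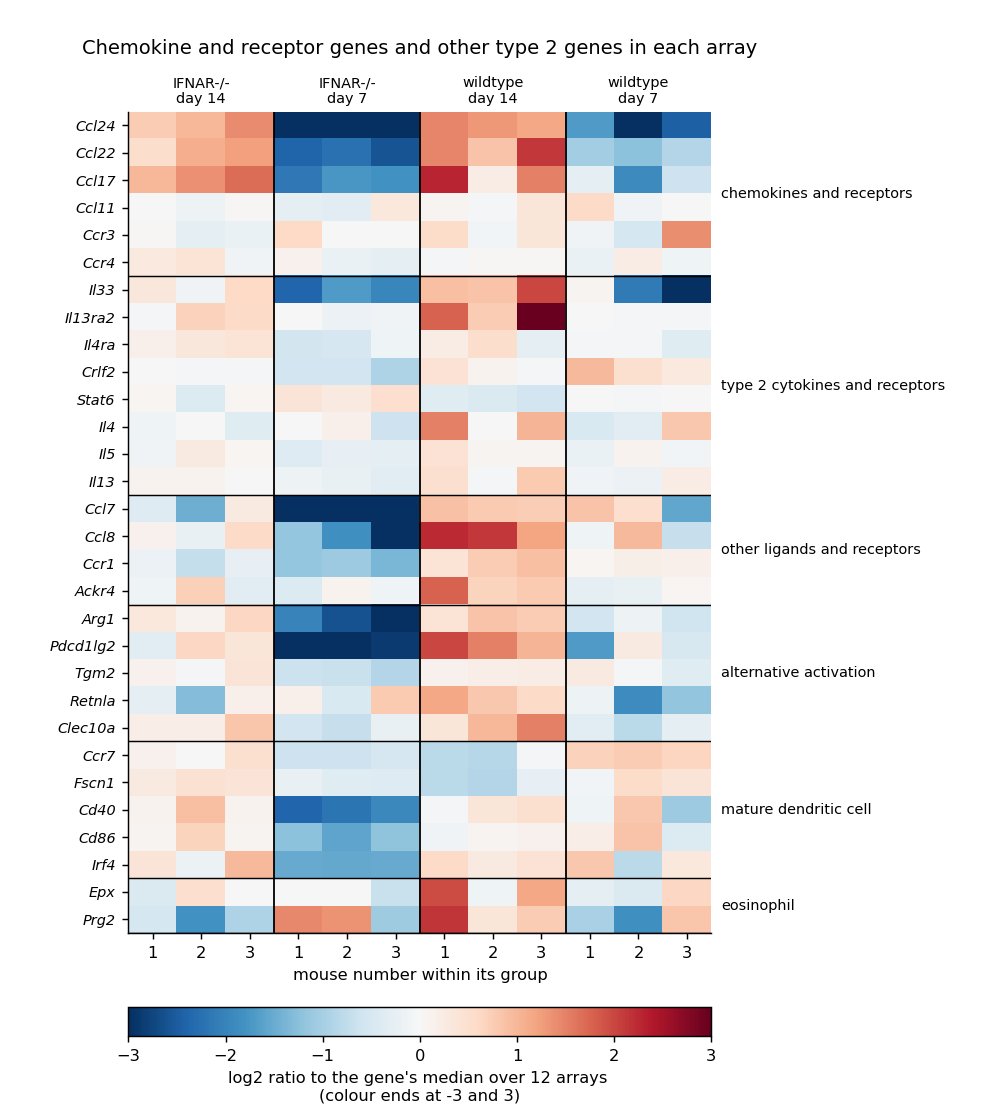
Colours give the log2 ratio to the gene's median in each of the 12 arrays, with arrays as columns grouped by genotype and day and genes as rows grouped by role. In the 3 IFNAR-/- day 7 arrays Ccl24, Ccl22, Ccl17, Ccl7, Arg1, Pdcd1lg2, Cd40 and Irf4 are all below 0, Il5 and Il13 are also below 0 by less (-0.38 to -0.15), and Ccl11, Ccr3, Ccr4 and Il4 each have at least 1 array above 0.

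By the Pearson correlation of log2 ratios over the 12 arrays, the 3 genes most like each of the 6 were looked up among all others. For Ccl24 they were Timp1 (0.969), S100a4 (0.966) and Eif2b1 (0.965), and for Ccl22 Aimp2 (0.973), Timp1 (0.965) and Eif2b1 (0.961). For Ccl17 they were Lmbr1l (0.946), Mmp10 (0.942) and Krtap6-3 (0.942). For Ccl11 they were Lrig1 (0.919), Pfn2 (0.884) and Trim16 (0.874), for Ccr3 Sulf2 (0.858), F5 (0.841) and Ctsk (0.835), and for Ccr4 Gm3924 (0.936), Angptl7 (0.889) and Dppa3 (0.876). Their likeness is a description with no test. The 12 points share 2 days and 2 genotypes, so for the 3 ligands that differed between days any gene with a like difference between days scores high.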

How the data were processed

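Biotin-labelled cRNA from RNeasy total RNA was hybridised to Affymetrix mouse arrays, 1 mouse per array, per the labels' protocols. The deposited table holds 1 linear ratio per probe set and array, made with RMA per the submitters' processing notes; all probe sets have a median within 0.02 of 1 over the arrays, so the authors' values appear to be divided by it, which no label states. Arrays have no read depth; precision is limited by there being 3 arrays per group.

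Ratios were log2 transformed. Of 45101 probe sets, 34945 had 1 symbol and were averaged to 18193 genes, while 64 controls, 9160 without a symbol and 932 with several were left out. limma 3.58.1 (R 4.3.3) was fitted to 4 group means, with Benjamini-Hochberg adjustment at 0.05, and was tested on simulated data. P-values measure the spread between single mice. The genes and lists were chosen with earlier results of these data known.

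Named are the 6 genes, the 3 most correlated genes of each, up to 4 called genes per list and comparison by lowest p, and fixed names from the lists and cell markers whether called or not. Cx3cl1 was added after values were seen. Alternatives were other normalizations, priors, weights, probe set rules, array sets, a replicate block and, chosen after seeing the data, covariates for RNA integrity and the poly-A controls.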

Additional observations from a re-analysis of the deposited data

How the results depend on the processing

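The main numbers of genes called were 451 for the change of the genotype difference, 917 for genotype at day 14, 481 for genotype at day 7, 2244 for time in IFNAR-/- and 1451 for time in wildtype cells. In the same order, array weights gave 1765, 1899, 1882, 4576 and 2688, and a minimum of 2-fold gave 296, 310, 233, 705 and 484. With only the arrays compared, genotype gave 362 at day 14 and 317 at day 7, and time in IFNAR-/- cells 1155. Without IFNAR-/- day 14 mouse 2 and day 7 mouse 3, time gave 1136 in IFNAR-/- and 2428 in wildtype cells. The covariates, chosen after seeing the data, gave 3 (change), 37 (day 14) and 154 (time in wildtype) with the 5' over 3' signal and 175 (change), 277 (day 7) and 819 (time in wildtype) with the poly-A signal. Of the 6 genes, array weights called 1 for the change (Ccl24). Of the 2 called at day 7, quantile normalization and a trended robust prior left 0, only the arrays compared 1 (Ccl22), and leaving out these same arrays or adding the poly-A signal 1 (Ccl24).

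Leaving out 1 array at a time gave 138 to 485 genes for the change, 384 to 794 for day 14, 210 to 464 for day 7, 1094 to 2520 for time in IFNAR-/- and 716 to 1090 for time in wildtype cells. Of the 6 genes this called 0 to 1 (Ccl24, without wildtype day 7 mouse 2), 0 to 0, 0 to 1, 3 to 3 and 2 to 3. The replicate block gave 325, 679, 418, 1974 and 1228 genes and the same numbers of the 6. Mouse numbers did not pair the arrays: deviations of same-numbered mice correlated between -0.40 and 0.23, and 3 of 12 arrays correlated best with an array of their own number. Differences of the 6 genes moved by more than the spread in 17 cases and by less in 523, and 0 called values changed sign. Without a stated background, signal over background limits the low genes in an unknown way.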
